A study of Mus musculus with 17 samples.

Results

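The 9 genes described here code for enzymes and carriers of vitamin A metabolism, read in the colon of male mice with or without the nuclear receptor PXR and with or without its ligand. They are Aldh1a1, Aldh1a2, Aldh1a3 and Aldh1a7, Cyp26b1, Rbp2, Dhrs3, Adh1 and Stra6. They were taken from the array by gene name, and for each gene the probe with the highest mean in the authors' log2 table was used, so that 9 of 37325 gene or transcript names on the array are described. The array carries 14 probes for the 9 genes, with over 1 probe for Aldh1a3, Dhrs3 and Adh1. The chosen probe of every gene was well above background on all 17 arrays.

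The study compared the target genes of PXR, encoded by Nr1i2, in liver and intestine, and the arrays described here are those of the colon. WT mice were C57BL/6J males bought at an age of 6 weeks. Pxr-/- mice, backcrossed on the C57Bl/6J background, came from a colony kept for years in the animal facility of the study, and their age is not given in the sources used here, so that genotype and origin of the mice cannot be told apart. PCN, pregnenolone 16α-carbonitrile, which activates PXR in rodents, was given i.p. at 100 mg/kg once a day over 4 days, and CONT mice received its solvent, corn oil. Mice were killed 6 h after the last dose, in the fed state by the labels. There were 4 arrays for WT mice on corn oil (WT CONT) and 4 for WT mice on PCN (WT PCN). For Pxr-/- mice, 5 arrays were from the corn oil group and 4 from the PCN group. Nothing in the labels ties the arrays of a group to separate extractions, so p-values measure the spread between these arrays, which may be technical in part.

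Vitamin A reaches cells as retinol, which STRA6 and cellular retinol-binding proteins such as RBP2 take up and carry. Alcohol and retinol dehydrogenases such as ADH1 oxidize retinol to retinaldehyde, and DHRS3 reduces retinaldehyde back to retinol. The retinaldehyde dehydrogenases ALDH1A1, ALDH1A2 and ALDH1A3 make retinoic acid, the ligand of the RAR receptors, and CYP26B1 breaks retinoic acid down. Aldh1a7 is a rodent paralog of Aldh1a1 on the same chromosome. In the gut, retinoic acid is known for its part in the homing and differentiation of mucosal lymphocytes and in the maintenance of the epithelium.

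The RefSeq table of GRCm38.p6 held a promoter window, 250 bases before to 50 after an annotated start, for 8 of the 9 genes, and Aldh1a3 has none there. The windows were searched on both strands for the half-site AGGTCA, its variant AGTTCA, the variant GGTTCA and the variant GGGTCA, for pairs of these half-sites on the same strand with spacers of 2, 4 or 5 bases, and for TATAAA. A half-site was present in 43.7% of 32817 windows of all genes, a pair with a spacer of 5 in 0.0975% and TATAAA in 13.6%. No pair was found in any window of the 8 genes. The windows of Aldh1a2, Adh1 and Dhrs3 and of the earlier Aldh1a1 start held none of these motifs, and of the 4 windows of Stra6 only the one at chr9:58133825-58134124 held a half-site, AGTTCA after the start. The bases before the start are printed for the paralogs Aldh1a1 (the later of 2 annotated starts, chr19:20601718-20601967, plus strand) and Aldh1a7 (chr19:20727557-20727806, minus strand), because their levels did not follow each other across arrays. They are printed as well for Rbp2 (chr9:98490287-98490536, plus strand), whose level ran with genes of the distal colon across arrays, and for Cyp26b1 (chr6:84593811-84594060, minus strand), each on the strand of the gene. Capitals mark half-sites and, in Rbp2 and Cyp26b1, TATAAA on either strand. Positions count from the annotated start to the first base of the motif, with negative values before it.
Aldh1a1: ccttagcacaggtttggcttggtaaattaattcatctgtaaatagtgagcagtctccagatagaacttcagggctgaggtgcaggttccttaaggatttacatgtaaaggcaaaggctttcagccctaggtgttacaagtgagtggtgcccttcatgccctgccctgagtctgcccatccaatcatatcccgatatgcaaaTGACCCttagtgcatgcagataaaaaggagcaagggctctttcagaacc
Aldh1a7: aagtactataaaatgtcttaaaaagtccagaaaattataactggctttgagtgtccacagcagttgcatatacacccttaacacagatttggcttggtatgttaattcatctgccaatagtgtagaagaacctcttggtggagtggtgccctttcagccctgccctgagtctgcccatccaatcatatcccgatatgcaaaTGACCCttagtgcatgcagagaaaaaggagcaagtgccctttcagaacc
Rbp2: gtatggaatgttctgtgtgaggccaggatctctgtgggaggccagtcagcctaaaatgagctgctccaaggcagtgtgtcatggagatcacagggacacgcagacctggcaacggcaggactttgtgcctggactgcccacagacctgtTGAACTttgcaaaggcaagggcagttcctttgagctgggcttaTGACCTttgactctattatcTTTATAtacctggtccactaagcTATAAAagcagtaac
Cyp26b1: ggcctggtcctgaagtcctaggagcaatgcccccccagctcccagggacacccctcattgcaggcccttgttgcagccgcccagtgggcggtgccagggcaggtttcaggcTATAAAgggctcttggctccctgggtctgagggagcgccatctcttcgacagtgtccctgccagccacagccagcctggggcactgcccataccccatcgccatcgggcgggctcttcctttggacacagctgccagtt
The Aldh1a1 and Aldh1a7 stretches had 176 identical bases among 232 aligned (75.9%), and both held TGACCC, the reverse complement of GGGTCA, at -49. Aldh1a7 also held TATAAA at -244, left in lower case, and Cyp26b1 held it at -139. Rbp2 held TGAACT at -101, which is AGTTCA on the other strand, and TGACCT at -58, which is AGGTCA on the other strand. TATAAA stood at -38 and -15 in Rbp2, on opposite strands. These matches describe letters, and no binding was measured.

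Across all arrays, 2 pairs under different labels were nearly the same. Over 38646 probes, the SD of the log2 difference was 0.172 between WT PCN 4 and Pxr-/- PCN 2 and 0.198 between WT PCN 3 and Pxr-/- CONT 2, against 0.297 to 0.616 for the other 134 pairs of arrays. Each comparison is therefore given with all 17 arrays and with the 13 arrays that remain without these 4, where WT PCN keeps 2 arrays, Pxr-/- CONT 4 and Pxr-/- PCN 3. All 7 colonocyte markers were well above background on every array, and their mean ran from 14.77 in Pxr-/- PCN 4 to 15.32 in Pxr-/- CONT 4. Among them, Aqp8 (13.10) and Slc26a3 (13.41) were lowest and Car1 (17.04) highest in Pxr-/- PCN 4. The mean of 7 genes of the small-intestinal enterocyte was highest in the same array, at 9.21, with Sis at 10.74. Whether Pxr-/- PCN 4 came from another position along the gut was not tested. The Nr1i2 probe was read at 11.97 to 12.31 in WT CONT and 10.39 to 11.61 in Pxr-/- CONT, and at 11.10 to 12.44 in WT PCN and 10.95 to 11.93 in Pxr-/- PCN (log2 signal), so that the genotypes overlapped under PCN. With 13 arrays it was at 11.85 to 12.44 in WT PCN and 11.37 to 11.93 in Pxr-/- PCN, with a smaller overlap. The WT PCN mean was 11.63 with 17 arrays and 12.14 with 13. Both near-identical WT PCN arrays thus lay below every other WT array and within the range of the Pxr-/- arrays. Where the probe lies relative to the deletion is not given in the sources used here. The mean of 5 genes of the distal colon (Hoxb13, Hoxd11, Hoxd12, Hoxd13 and Hoxa13), which mark position along the gut, ranged from 6.35 in Pxr-/- PCN 4 to 10.44 in Pxr-/- PCN 3. Hoxb13 alone ran from 7.53 in Pxr-/- PCN 4, with 12.88 in Pxr-/- CONT 4 as the next lowest, to 16.09 in WT CONT 3. Hoxd11 was well above background on 4 arrays and Hoxd12 on 11. Single genes of this list departed from its mean. Hoxa13 was at 7.83 in Pxr-/- PCN 4 but between 9.32 and 9.88 on every other array. It was at 9.48 in both WT PCN 1 and Pxr-/- PCN 3, where the list mean was high, and at 9.83 in Pxr-/- CONT 4, where it was low. Hoxd11 was at 5.61 in Pxr-/- PCN 4, above most other arrays. The mean of 6 genes of the pancreas ran from 6.87 to 17.59, with the highest value in WT CONT 4, and no relation of it with any of the 9 genes passed an adjusted permutation test. The mean of 6 liver genes (Alb, Ahsg, Fgb, Serpina1a, Apoa2 and Apoh) was 11.77 in WT CONT 5, 8.97 in WT PCN 1 and 9.02 in WT PCN 2. On every other array it was at most 7.06. Apoh, at 6.53 in WT PCN 1, lay within the range of those other arrays. WT PCN 1 and 2 are the only WT PCN arrays among the 13.

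None of the 9 genes was called (FDR of at most 0.05 and fold change over 1.5, limma with Benjamini-Hochberg adjustment over all probes) in any comparison, with 17 or with 13 arrays. Called probes were few among all 38703 tested, with 0% for PCN against CONT in WT, 0.00517% in Pxr-/- and 0.00517% over both genotypes, and 0% for Pxr-/- against WT under CONT, for the same under PCN and for the difference of the PCN effect between genotypes. Without adjustment, the limma p was below 0.05 for 2 of the 9 genes under PCN in WT (4.66% of all probes), 1 in Pxr-/- (7.35%), 2 for genotype under CONT (12.7%), 0 for genotype under PCN (3.28%), 2 for the difference of the PCN effect (5.38%) and 2 for PCN over both genotypes (5.91%). These were readings of Aldh1a3, Cyp26b1 and Dhrs3. With 13 arrays, called probes made up 0.0498% (PCN in WT mice), 0.0603% (PCN in Pxr-/- mice), 0% for genotype under CONT, 0.021% for genotype under PCN, 0.00262% for the difference of the PCN effect and 0.194% for PCN over both genotypes, of 38155 tested. The groups did not overlap for 1 of the 9 genes under PCN in Pxr-/- mice (2.8% of all probes), and they overlapped for all 9 under PCN in WT (2.64% without overlap), for genotype under CONT (5.39%) and under PCN (1.48%), and for PCN over both genotypes (0.0207%), with 17 arrays. The plot of levels on every array shows which groups overlap for each gene.

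**Figure D1:**
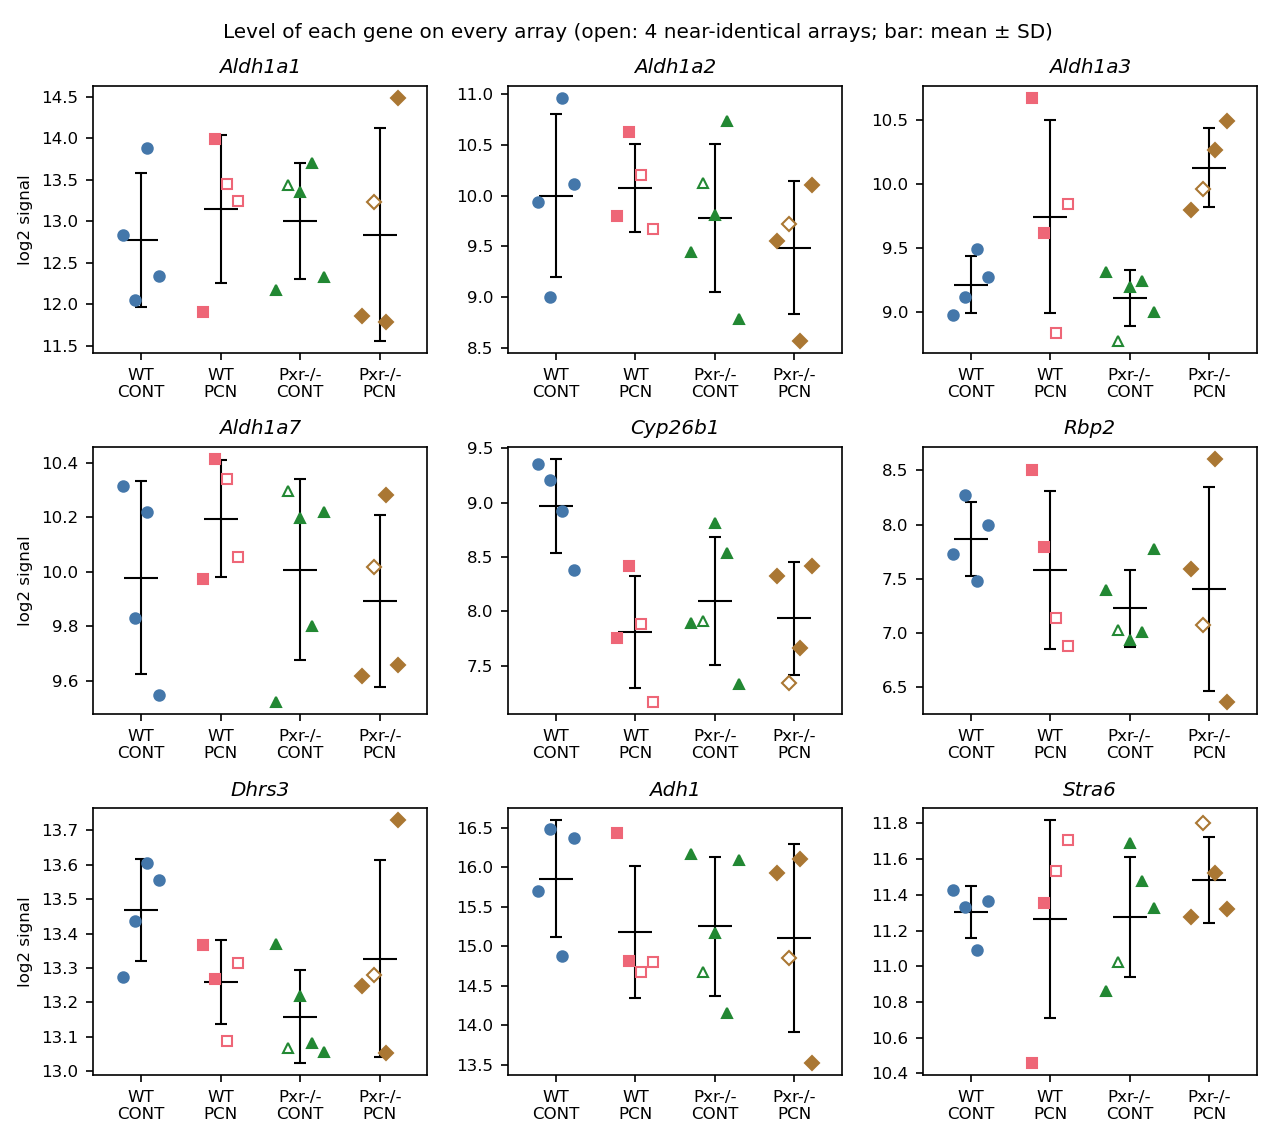
Normalized log2 signal (y axis) of the 9 genes on each of 17 arrays, by group (x axis). Filled symbols are 13 arrays, open symbols are the 4 near-identical arrays, and bars are the mean ± SD over all arrays of the group. The 4 Pxr-/- PCN arrays of Aldh1a3 sit above all 5 Pxr-/- CONT arrays, whereas the other 8 genes overlap between the groups of each comparison.

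Aldh1a3, which makes retinoic acid from retinaldehyde, was higher under PCN in both genotypes by fitted difference, without passing the adjusted threshold. Its probe lies at chr7:73535785-73535844 (mm9, minus strand). Its log2 signal was 8.97, 9.11, 9.49 and 9.27 in WT CONT 2 to 5, and 10.67, 9.62, 8.84 and 9.84 in WT PCN 1 to 4. It was 9.31, 8.77, 9.19, 9.24 and 9.0 in Pxr-/- CONT 1 to 5, and 9.80, 9.96, 10.27 and 10.49 in Pxr-/- PCN 1 to 4. In Pxr-/- mice every PCN array lay above every CONT array, as for 2.8% of all probes in either direction, whereas in WT the array WT PCN 3 lay below all CONT arrays and the other three above. The order of the group means was Pxr-/- PCN (10.13 ± 0.31, SD), WT PCN (9.74 ± 0.76), WT CONT (9.21 ± 0.22) and Pxr-/- CONT (9.10 ± 0.22), in which all neighbours differed by less than the larger of their SDs.

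In Pxr-/- mice, the fitted log2 difference of Aldh1a3 was 1.05 ± 0.26 (SE, 2.07-fold, adjusted p = 0.354, limma). In WT it was 0.60 ± 0.27 (SE, adjusted p = 0.956), and without the 4 near-identical arrays it was 0.93 ± 0.25 (adjusted p = 0.591), with both remaining WT PCN arrays above all 4 CONT arrays, as for 11.2% of all probes. Over both genotypes it was 0.83 ± 0.19 with 17 arrays (adjusted p = 0.254) and 0.95 ± 0.17 with 13 (adjusted p = 0.0675), where every PCN array lay above every CONT array, as for 0.341% of all probes. The PCN effect of Aldh1a3 did not differ detectably between genotypes, at 0.45 ± 0.37 (SE, adjusted p = 0.857, limma) with 17 arrays and 0.03 ± 0.34 with 13. Within the wash baths, the difference over both genotypes was 0.64 in bath 1 and 1.21 in bath 2, and 0.81 and 1.14 with 13 arrays.

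WT PCN 1 and WT PCN 3 weighed most on Aldh1a3. Without WT PCN 1, which had the highest value of all arrays, the difference for PCN in WT was 0.24 ± 0.25 and that over both genotypes 0.64 ± 0.16 (SE, adjusted p = 0.526, limma). When WT PCN 3 alone was left out, the difference over both genotypes was 0.96 ± 0.15 (SE) with an adjusted p of 0.0144, which passed the threshold. It passed as well without the pair WT PCN 3 and Pxr-/- CONT 2 (0.91 ± 0.14, adjusted p = 0.0228), and did not pass without the pair WT PCN 4 and Pxr-/- PCN 2 (0.80 ± 0.21, adjusted p = 0.649). A second probe for Aldh1a3 was well above background on only 9 of 17 arrays, and its log2 signal ran from 5.15 to 5.58 over the 9 CONT arrays and from 5.58 to 6.25 over the 8 PCN arrays. WT PCN 3 was at 6.25 on this probe, and the array nearly the same as it, Pxr-/- CONT 2, was at 5.55. The third probe was not well above background on any array. With the mean of both tested probes, and so with the probe near background counted in, the difference over both genotypes was 0.59 ± 0.09 and Aldh1a3 was called (adjusted p = 0.0425 over 25029 genes).

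Cyp26b1, which inactivates retinoic acid, had its highest values in WT CONT. Its probe lies at chr6:84521952-84522011 (mm9, minus strand). The log2 signal was 9.36, 9.21, 8.93 and 8.38 in WT CONT 2 to 5, and 7.75, 8.42, 7.88 and 7.17 in WT PCN 1 to 4. It was 7.89, 7.91, 8.81, 8.53 and 7.33 in Pxr-/- CONT 1 to 5, and 8.33, 7.34, 7.66 and 8.41 in Pxr-/- PCN 1 to 4. Of the WT CONT arrays, 3 lay above every array of the other groups, and WT CONT 5 lay within their range. WT CONT had a mean of 8.97 ± 0.43 (SD), and the next group in order, Pxr-/- CONT at 8.10 ± 0.59, differed from Pxr-/- PCN (7.93 ± 0.52) and WT PCN (7.81 ± 0.52) by less than 1 SD. The mean of 5 adipocyte genes (Adipoq, Plin1, Cidec, Lep and Cfd), of which Plin1 was well above background on 14 arrays and the others on all, was also highest in WT CONT. It ran from 9.05 to 10.60 there, from 7.94 to 9.47 in WT PCN, from 8.38 to 9.94 in Pxr-/- CONT and from 7.03 to 8.43 in Pxr-/- PCN. Lep alone was not highest in WT CONT, at 6.91 to 7.18 there and 6.66 to 7.21 over all arrays. Relations were computed over 15 profiles, in which each near-identical pair was averaged. That of the adipocyte mean with Cyp26b1 had r = 0.519 and rho = 0.539 (adjusted permutation p = 0.287 and 0.266), the highest of the 13 marker lists for this gene. With Dhrs3 the adipocyte mean had r = 0.427 and rho = 0.407 (adjusted permutation p = 0.485 and 0.539).

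The fitted log2 difference of Cyp26b1 was -1.23 ± 0.34 for PCN in WT (SE, unadjusted p = 0.00299, adjusted p = 0.956, limma) and -0.85 ± 0.32 for Pxr-/- against WT under CONT (unadjusted p = 0.0191, adjusted p = 0.325). With 13 arrays these were -0.88 ± 0.35 and -0.83 ± 0.29. Both comparisons share the WT CONT arrays. The difference of the PCN effect between genotypes was 1.04 ± 0.47 (unadjusted p = 0.0429, adjusted p = 0.848), but it was 0.29 within bath 1 and 1.56 within bath 2, and with 13 arrays -0.15 and 1.66. The difference for PCN over both genotypes was -0.71 ± 0.24 (adjusted p = 0.621) and -0.41 ± 0.24 with 13 arrays, and it was -1.32 within bath 1 and -0.12 within bath 2. Within baths, the difference for PCN in WT was -1.46 and -0.90 and that for genotype under CONT -0.61 and -0.95, in the same direction.

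**Figure D2:**
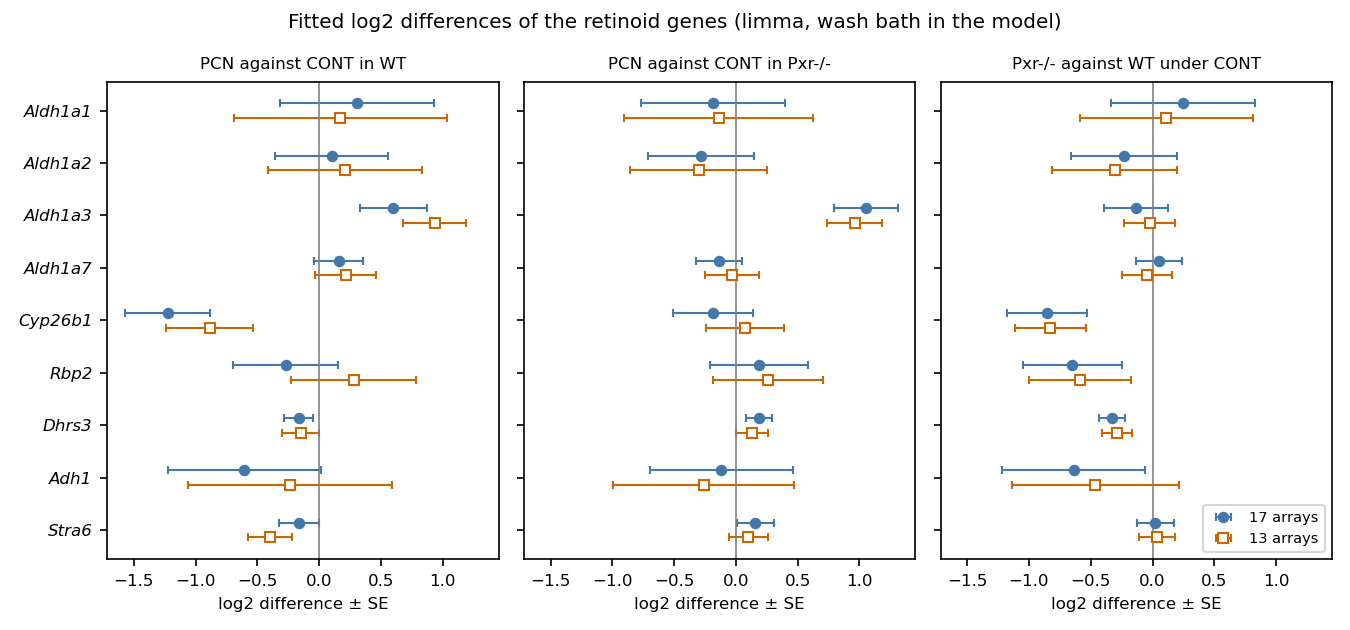
Fitted log2 difference ± SE (x axis) of each of the 9 genes (y axis) for PCN in WT, PCN in Pxr-/- and genotype under CONT. Blue circles are fits to 17 arrays and open orange squares fits to the 13 arrays without the near-identical pairs. Aldh1a3 is at 1.05 in Pxr-/- mice and Cyp26b1 at -1.23 in WT mice, and Aldh1a1, Aldh1a2, Rbp2 and Adh1 have the widest errors.

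Dhrs3, which turns retinaldehyde back into retinol, was lower in Pxr-/- than in WT mice under CONT by fitted difference. Its probe lies at chr4:144517485-144517544 (mm9, plus strand). The log2 signal was 13.27, 13.44, 13.61 and 13.56 in WT CONT 2 to 5 and 13.37, 13.07, 13.22, 13.08 and 13.05 in Pxr-/- CONT 1 to 5. The groups overlapped through WT CONT 2 and Pxr-/- CONT 1. The difference was -0.33 ± 0.11 (SE, unadjusted p = 0.0086, adjusted p = 0.276, limma), and -0.29 ± 0.12 with 13 arrays, with -0.20 in bath 1 and -0.42 in bath 2. A second Dhrs3 probe ran from 8.0 to 8.45 in WT CONT and from 7.51 to 7.79 in Pxr-/- CONT, without overlap, as for 3.01% of all probes in this direction, with a difference of -0.56 ± 0.12 (SE, adjusted p = 0.184, limma). The values under PCN were 13.37, 13.27, 13.09 and 13.31 in WT PCN 1 to 4 and 13.25, 13.28, 13.05 and 13.73 in Pxr-/- PCN 1 to 4. The PCN effect differed between genotypes by 0.35 ± 0.16 with 17 arrays (unadjusted p = 0.0401, adjusted p = 0.848) and by 0.28 ± 0.20 with 13, where it was -0.01 in bath 1 and 0.49 in bath 2.

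Stra6, a membrane receptor for retinol bound to its plasma carrier, differed by less than the spread between arrays in most comparisons. Its log2 signal was 11.43, 11.33, 11.09 and 11.37 in WT CONT 2 to 5, and 10.46, 11.36, 11.53 and 11.71 in WT PCN 1 to 4. It was 10.86, 11.02, 11.69, 11.48 and 11.33 in Pxr-/- CONT 1 to 5, and 11.28, 11.80, 11.52 and 11.32 in Pxr-/- PCN 1 to 4. WT PCN 1 lay below all other arrays. The fitted difference for PCN in WT was -0.16 ± 0.16 (SE) with 17 arrays and -0.40 ± 0.18 with 13 (adjusted p = 1.00, limma), turned to 0.05 without WT PCN 1, and was 0.15 in bath 1 and -0.77 in bath 2. Under PCN, Pxr-/- against WT gave 0.34 ± 0.16 with 17 arrays and 0.53 ± 0.19 with 13 (adjusted p = 0.561), and 0.13 without WT PCN 1.

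For Adh1, Aldh1a1, Rbp2 and Aldh1a2, the range within every group was wider than the range of the group means. The SD within groups was 0.92, 0.93, 0.63 and 0.67 for these genes, in this order. Their probes lie at chr3:137952821-137952880 (Adh1), chr19:20717764-20717823 (Aldh1a1), chr9:98410012-98410071 (Rbp2) and chr9:71143931-71143990 (Aldh1a2), all on the plus strand of mm9. Adh1 ran from 13.52 in Pxr-/- PCN 4 to 16.49 in WT CONT 3, Aldh1a1 from 11.79 in Pxr-/- PCN 3 to 14.48 in Pxr-/- PCN 4, Rbp2 from 6.37 in Pxr-/- PCN 4 to 8.60 in Pxr-/- PCN 3, and Aldh1a2 from 8.57 in Pxr-/- PCN 3 to 10.96 in WT CONT 4 (log2 signal). Both extremes of Aldh1a1 and of Rbp2 were thus arrays of 1 group, Pxr-/- PCN 3 and 4, in opposite order. In the model of groups and wash bath, neither these 4 genes nor Aldh1a7 had an unadjusted limma p below 0.05 in any comparison with 17 or 13 arrays.

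The group means of Adh1 were 15.86 ± 0.74 in WT CONT, 15.18 ± 0.84 in WT PCN, 15.25 ± 0.88 in Pxr-/- CONT and 15.10 ± 1.19 in Pxr-/- PCN (SD). Aldh1a1 had group means from 12.78 ± 0.80 in WT CONT to 13.15 ± 0.89 in WT PCN, and Aldh1a2 from 9.49 ± 0.65 in Pxr-/- PCN to 10.07 ± 0.43 in WT PCN. Rbp2 had group means from 7.23 ± 0.35 in Pxr-/- CONT to 7.87 ± 0.34 in WT CONT. Neighbours in each order differed by less than the larger of their SDs. Aldh1a7, whose probe lies at chr19:20767553-20767612 (mm9, minus strand), had group means from 9.89 ± 0.32 in Pxr-/- PCN to 10.20 ± 0.21 in WT PCN, with all arrays between 9.52 and 10.41.

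The levels of Adh1, Rbp2, Aldh1a1 and Aldh1a2 moved with the genes of the distal colon across arrays. For this, each near-identical pair was averaged, which gave 15 profiles, and 153 relations were computed (117 of a gene with a marker list and 36 between genes), with permutation tests of 100000 resamples and Benjamini-Hochberg adjustment over the 153. Adh1, which oxidizes retinol, rose with the mean of the distal colon genes (Pearson r = 0.945, adjusted permutation p = 0.000306, and Spearman rho = 0.896, adjusted permutation p = 0.00102). Without the 2 profiles farthest from the median of the distal colon genes, r was 0.900, and among the 13 arrays it was 0.940 in bath 1 (6 arrays) and 0.974 in bath 2 (7 arrays). Rbp2, the retinol carrier of the enterocyte, rose too (r = 0.894, adjusted permutation p = 0.00102, and rho = 0.814, adjusted permutation p = 0.00831), with r = 0.832 without the 2 farthest profiles and 0.859 and 0.939 in the baths.

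Aldh1a1 went the other way, with r = -0.933 (adjusted permutation p = 0.000306) and rho = -0.907 (adjusted permutation p = 0.00102), -0.913 without the 2 farthest profiles, and -0.968 and -0.936 within the baths. Aldh1a2 ran against the distal colon genes too, with a rho that passed and an r that did not (r = -0.672, adjusted permutation p = 0.0593, and rho = -0.757, adjusted permutation p = 0.0240), with -0.737 without the 2 farthest profiles and -0.966 and -0.451 within the baths. The unadjusted p of 1e-05 behind the adjusted values of Adh1 and Aldh1a1 is the smallest that the permutations can give. The genes of the small-intestinal enterocyte (Fabp2, Apoa1, Apoa4, Lct, Sis, Alpi and Fabp6), 2 of which were well above background on at most 3 arrays, had a list mean that went in the opposite direction to that of the distal colon genes, with r = -0.911 for Adh1, -0.832 for Rbp2 and 0.865 for Aldh1a1. Single genes of this list departed from its mean, since Fabp6 was at 12.46 in Pxr-/- PCN 4 but also at 10.97 in WT PCN 1 and 10.34 in Pxr-/- PCN 3, and Apoa1 was highest in WT CONT 5 at 8.12. The mean of the 6 liver genes was highest in WT CONT 5 too. Between genes, Aldh1a1 and Adh1 were opposed (r = -0.930, rho = -0.832, adjusted permutation p = 0.000306 and 0.00612), and Rbp2 and Adh1 ran together (r = 0.825, rho = 0.739, adjusted permutation p = 0.00363 and 0.0284).

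**Figure D3:**
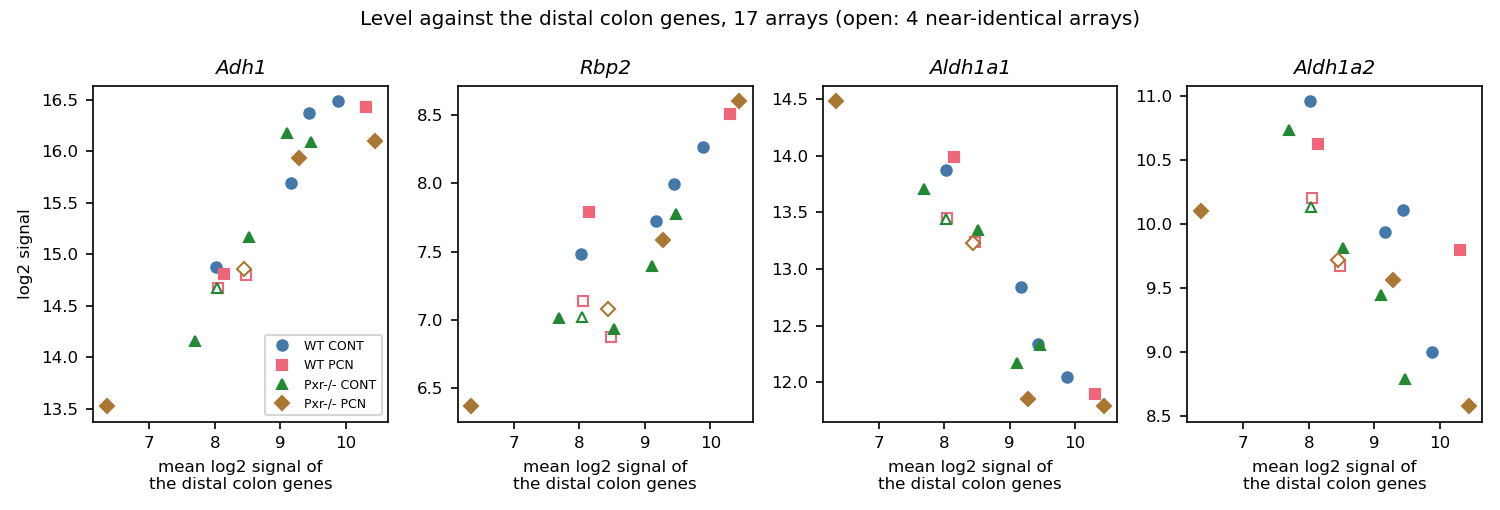
Log2 signal of Adh1, Rbp2, Aldh1a1 and Aldh1a2 (y axis) against the mean log2 signal of 5 distal colon Hox genes (x axis) on 17 arrays, with symbols for the groups and open symbols for the 4 near-identical arrays. Adh1 and Rbp2 run upward and Aldh1a1 downward from Pxr-/- PCN 4, at 6.35, to Pxr-/- PCN 3, at 10.44, with arrays of all groups mixed along the way.

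Aldh1a2, known from mesothelium, stroma and mucosal dendritic cells, followed other lists as well. It rose with the 5 mesothelial markers Msln, Upk3b, Lrrn4, Wt1 and Upk1b (r = 0.777, adjusted permutation p = 0.00952, and rho = 0.779, adjusted permutation p = 0.0176), with r = 0.676 without the 2 farthest profiles and 0.893 and 0.823 within the baths. Their mean level ran from 7.03 to 9.08 in WT CONT, 6.73 to 8.91 in WT PCN, 6.59 to 9.18 in Pxr-/- CONT and 6.76 to 7.78 in Pxr-/- PCN. It also rose with 5 smooth muscle genes (r = 0.739, adjusted permutation p = 0.0197, and rho = 0.750, adjusted permutation p = 0.0248), which fell to r = 0.550 without the 2 farthest profiles. With the small-intestinal enterocyte genes its rho passed (0.764, adjusted permutation p = 0.0218) and its r did not (0.629, adjusted permutation p = 0.0927). For 6 dendritic cell genes r was -0.534, and Xcr1 among them was well above background on 1 array. The dendritic cell list also went against Aldh1a1 (r = -0.749, rho = -0.693, adjusted permutation p = 0.0186 and 0.0549). It rose with Adh1 (r = 0.707, rho = 0.700, adjusted permutation p = 0.0360 and 0.0493). Within this list Ccr7 ran from 6.94 to 9.43. Itgae departed from the list mean, with its highest value (8.47) in Pxr-/- PCN 4, where Aldh1a1 was highest and Adh1 lowest. In whole tissue, more cells of a type and more RNA per cell cannot be told apart.

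Aldh1a3, Cyp26b1 and Aldh1a7 had r of 0.03, -0.18 and 0.04 with the distal colon genes, and Aldh1a1 and its paralog Aldh1a7 had r = 0.244 with each other. Over the groups, the distal colon genes ran from 8.03 to 9.88 in WT CONT, 8.05 to 10.31 in WT PCN, 7.70 to 9.47 in Pxr-/- CONT and 6.35 to 10.44 in Pxr-/- PCN. When their mean was added to the model, a choice made after the data had been seen, the SE of the PCN difference over both genotypes shrank from 0.43 to 0.11 for Adh1, from 0.43 to 0.12 for Aldh1a1 and from 0.29 to 0.13 for Rbp2. The difference of Adh1 was then -0.24 (unadjusted p = 0.0469, adjusted p = 0.578, limma), that of Aldh1a1 -0.06 and that of Rbp2 0.04. In this comparison 8.52% of all probes had an unadjusted p below 0.05. Aldh1a3 was at 0.84 ± 0.19 (SE, adjusted p = 0.166) and Cyp26b1 at -0.73 ± 0.23 (adjusted p = 0.344). With 13 arrays, Aldh1a3 was at 0.95 ± 0.17 and was called (adjusted p = 0.0476), as were 141 of 38155 probes. The genotype difference of Cyp26b1 under CONT was -0.94 ± 0.32 with 17 arrays and -0.93 ± 0.22 with 13 in this model, with adjusted p of 0.267 and 0.140 (limma). That of Dhrs3 was -0.37 ± 0.10 and -0.33 ± 0.10 (adjusted p = 0.200 and 0.216). With 13 arrays, that of Rbp2 was -0.39 ± 0.14 (unadjusted p = 0.0179, adjusted p = 0.293), where 12.7% of all probes had an unadjusted p below 0.05. Under PCN with 13 arrays, the genotype difference was -0.62 ± 0.22 for Aldh1a1 and -1.08 ± 0.38 for Aldh1a2 (unadjusted p = 0.0176 and 0.0165, adjusted p = 0.319 and 0.313). That of Stra6 was 0.50 ± 0.18 (unadjusted p = 0.0209, adjusted p = 0.335, limma). For this comparison 11.5% of all probes had an unadjusted p below 0.05.

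**Figure D4:**
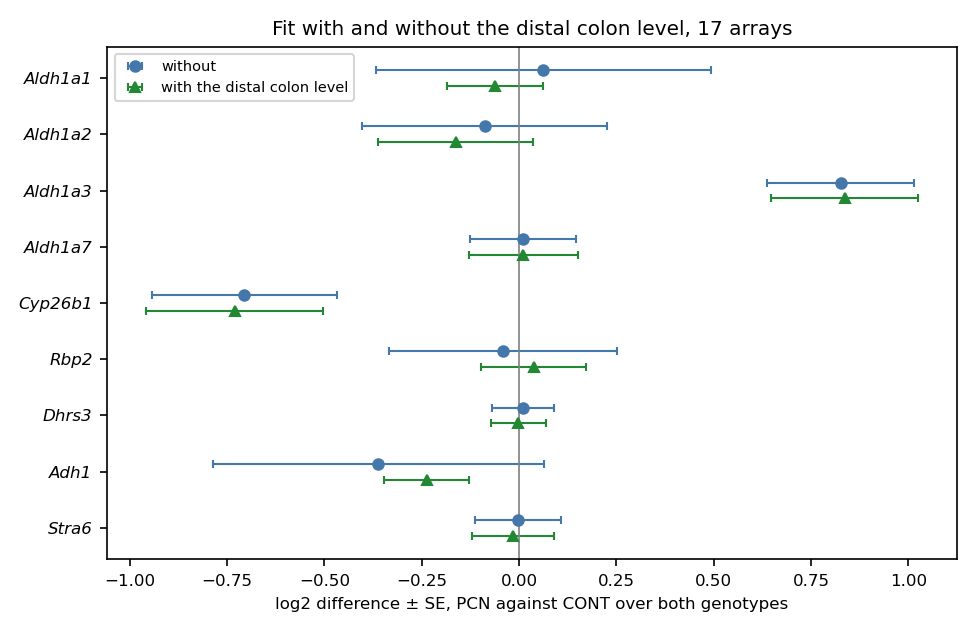
Log2 difference ± SE between PCN and CONT over both genotypes (x axis) for each of the 9 genes (y axis), from 17 arrays, without (blue circles) and with (green triangles) the mean of the distal colon genes in the model. The SE of Adh1 falls from 0.43 to 0.11, and Aldh1a3 stays at 0.83 and 0.84.

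Among 24993 genes compared over the 15 profiles, those most like Aldh1a1 were Abcc5 (r = 0.981), Gm2115 and Nkain1 (both at or above 0.967). Those most like Adh1 were Gm12320 (r = 0.988), Lrrk2 and 5830428M24Rik, and most like Stra6 were Pik3ca (r = 0.979), Prickle1 and Trpm1. Aldh1a3 was most like Osmr (r = 0.935) and Tnfrsf1a (r = 0.933), receptors for oncostatin M and TNF, and a transcript without a gene name. Aldh1a2 was most like Rgma (r = 0.948), Igf1r and Tmod1. Rbp2 was most like a transcript without a gene name, Acy1 (r = 0.942) and Acap2. The likest genes had lower r for Aldh1a7 (0.831 for Gps1), Dhrs3 (0.849 for Lclat1) and Cyp26b1 (0.780 for Adgrf3). These r describe likeness over the same arrays and were picked as the highest of many.

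The 9 genes stand on a longer list of 53 retinoid genes, of which 52 have a probe and 46 were tested. Of the 3 genes for the breakdown of retinoic acid, Cyp26b1 was tested, and Cyp26a1 and Cyp26c1 were not well above background on any array. On the 6 lists by role, 33 genes beside the 9 were tested, and none was called in any comparison. Without adjustment, 2 of these 33 had a limma p below 0.05 under PCN in WT (4.66% of all probes), 4 in Pxr-/- (7.35%) and 5 for genotype under CONT (12.7%). The median log2 difference of all 42 tested genes on the role lists was -0.04, 0.01 and -0.09 in these comparisons, against 0.0045, 0.0036 and 0.0099 over all tested genes. Of 13 genes known to respond to retinoic acid, 11 were tested, and none was called in any comparison.

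Rarb, the receptor RARβ and a classical target of retinoic acid, had the smallest p among them. It was at 8.03, 8.0, 8.18, 7.97 and 7.83 in Pxr-/- CONT 1 to 5 and at 7.38, 7.31, 7.56 and 7.20 in Pxr-/- PCN 1 to 4 (log2 signal). All PCN arrays lay below all CONT arrays, as for 1.42% of all probes. The difference was -0.65 ± 0.11 (SE, unadjusted p = 2.02e-05, adjusted p = 0.157, limma) and -0.60 ± 0.10 with 13 arrays (adjusted p = 0.104). In WT the groups overlapped, at 7.90 to 8.10 under CONT and 7.52 to 8.08 under PCN, and the PCN effect in Pxr-/- minus that in WT mice was -0.43 ± 0.15 (SE, unadjusted p = 0.0139, adjusted p = 0.848). The promoter window of Rarb was the only one among those of Rarb and the 8 genes with a pair of half-sites, a direct repeat with a spacer of 5, shown in capitals in the 100 bases before the start (chr14:16575477-16575576, minus strand).
Rarb: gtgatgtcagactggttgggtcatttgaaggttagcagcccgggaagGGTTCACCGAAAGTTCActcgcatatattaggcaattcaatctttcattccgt

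Other listed genes did not pass the adjusted threshold either. Rdh10, the main retinol dehydrogenase of the embryo, was higher under PCN by 0.38 ± 0.14 (SE) in Pxr-/- mice (adjusted p = 0.573, limma), and Tgm2, a transglutaminase that retinoic acid induces, by 0.38 ± 0.13 (adjusted p = 0.535). All 4 Pxr-/- PCN arrays lay above all CONT arrays for Rdh10 and Tgm2, as for 1.38% of all probes. The difference of Rdh11, a retinaldehyde reductase, was -0.42 ± 0.14 in Pxr-/- mice (adjusted p = 0.538), with overlapping groups. Under CONT, Retsat, which saturates retinol, was lower in every Pxr-/- array than in every WT array (-0.35 ± 0.10, adjusted p = 0.242), as were 3.01% of all probes, and Hic1 was at -0.43 ± 0.13 (adjusted p = 0.259). The plasma carrier Rbp4 was at 0.59 ± 0.24 and Rbp7 at 0.40 ± 0.16 in the same comparison (adjusted p = 0.343 and 0.333).

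**Figure D5:**
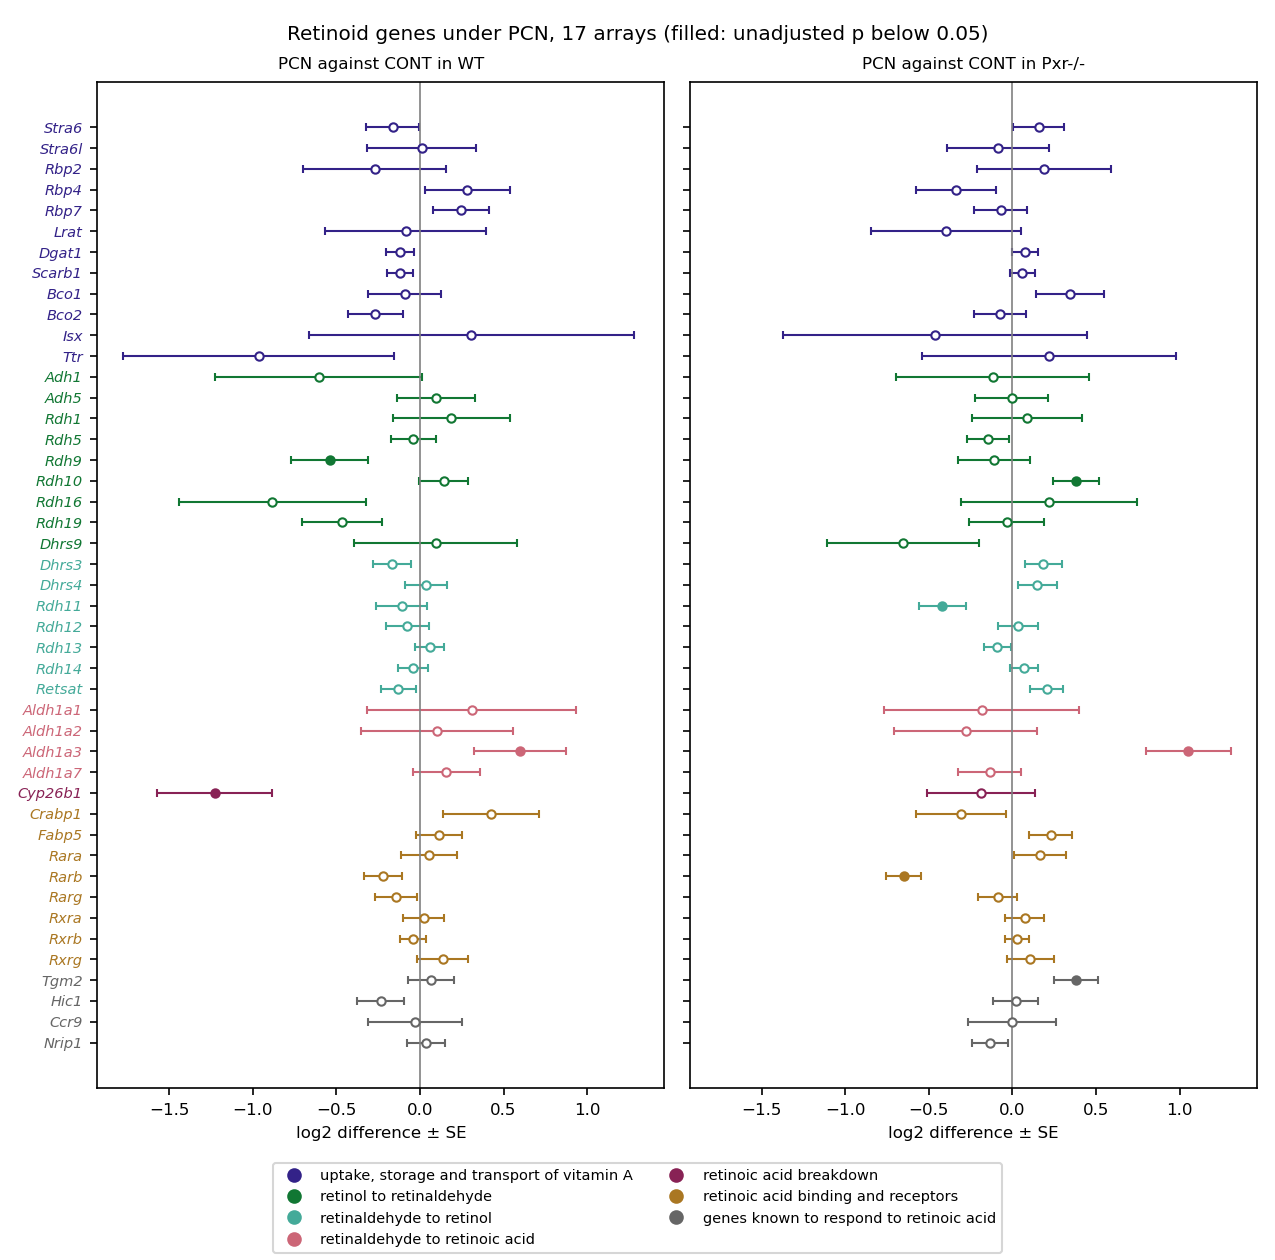
Log2 difference ± SE (x axis) between PCN and CONT in WT and in Pxr-/- mice for the tested retinoid genes (y axis), of which 1 is not shown, coloured by role, from 17 arrays. Filled points have an unadjusted p below 0.05, Cyp26b1 is at -1.23 in WT, and Aldh1a3 at 1.05 and Rarb at -0.65 in Pxr-/- mice.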

How the data were processed

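RNA of 17 mouse colons was hybridized to 1-colour Agilent arrays by the authors, who deposited scanner output of Agilent Feature Extraction 10.10.1.1 with the median, mean, background and processed intensity of each spot, not normalized between arrays, and a table of normalized log2 values. The 9 genes, the gene lists and the near-identical arrays were chosen with earlier results of these data known. Groups and replicate numbers follow the labels.

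The log2 of the median intensity of 59305 spots that are no controls was quantile-normalized without outlier spots, in place of the study's CrossNorm normalization, which is not described closely enough to repeat. Spots of a probe were averaged (56605 probes). Probes well above background on at least 4 arrays (38703, or 38155 with 13 arrays) were fitted with limma 3.58.1 in R 4.3.3, with the 4 groups and the wash bath, with Benjamini-Hochberg adjustment over all of them. Between 61.0% and 69.7% of probes were well above background on an array, no spot was saturated, and the number of arrays limits the precision. The 17 arrays lie on 8 slides and in 2 baths. The fit was tested on simulated data.

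A log2 difference with its SE is given for a gene of the 9 where its unadjusted p was below 0.05 with 17 or 13 arrays, for other listed genes by smallest p (at most 6 in a comparison), and otherwise levels are given. The 3 genes of highest Pearson r with each of the 9 were listed, with each near-identical pair averaged. Differences from the model with the distal colon genes are given besides. Pxr-/- against WT, PCN against CONT and the difference of the PCN effect were compared, and other settings are described in the closing part. One listed retinoid gene is not reported here.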

Additional observations from a re-analysis of the deposited data

Results flagged for a closer look

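Among the 36 sets of arrays looked at (9 genes in 4 groups), 1 held an array apart from the rest of its group. Adh1 was at 16.43 (log2 signal) in WT PCN 1 against 14.81 in the next array of the group, a gap of 0.921 of the range of the 4 arrays. The distal colon genes were at 10.31 on the same array and at 8.05 to 8.48 on the other three, and their part in this value was not tested. Chance alone sets about 1 group in 20 apart by this measure.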

How the results depend on the processing

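The count of called genes stayed at 0 of 9 in 5 of the 6 comparisons under every alternative run. For PCN against CONT over both genotypes it was 1 (Aldh1a3) with the mean of all probes of a gene, 1 without the pair WT PCN 3 and Pxr-/- CONT 2, 1 without the 4 near-identical arrays and with the distal colon level in the model, and 0 to 1 with each array left out in turn, where 1 came without WT PCN 3. The last 2 kinds of choice, leaving out 1 pair and adding the distal colon level, were made after seeing the data. Of the differences named, that of Stra6 for PCN in WT ran from -0.27 to 0.05 with each array left out in turn, with 0.051 without WT PCN 1, and the other differences kept their direction in every refit. Within bath 1 alone, with 13 arrays, the difference of the PCN effect between genotypes turned to -0.15 for Cyp26b1 and -0.01 for Dhrs3. Over the alternatives, leaving out single arrays aside, Aldh1a3 ran from 0.59 to 0.95 over both genotypes and Cyp26b1 from -1.38 to -0.86 for PCN in WT.

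Whether replicate numbers pair the arrays was not tested. Deviations of same-numbered arrays of different groups correlated at -0.33 to 0.49 (median 0.10), and 11 of 22 such pairs were over 0.1. For arrays of different groups and different numbers, r was -0.49 to 0.62 (median -0.05), and 30 of 86 pairs were over 0.1. With the replicate number as a block, the count of called genes was 0 in all 6 comparisons.

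Groups held 2 to 5 arrays. Without the distal colon level in the model, the SE of the PCN difference over both genotypes was 0.43 for Adh1 and Aldh1a1 and 0.29 for Rbp2. Differences up to about 2 SE could not be told from the spread between arrays, even without adjustment. With adjustment larger ones did not pass either, as for Aldh1a3 at 0.83 ± 0.19 (SE, adjusted p = 0.254, limma).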
